A study of Mus musculus with 6 samples.

Results

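The genes described are 8 members of the phospholipase C gamma pathway: the phospholipase genes Plcg1 and Plcg2, the protein kinase C genes Prkca, Prkcb, Prkcd and Prkcq, and the Ras exchange factor genes Rasgrp1 and Rasgrp4. They were picked by GENCODE symbol out of 43629 gene IDs in the deposited count table, and all 8 passed the filter on low counts that left 15432 genes. Plcg1 was picked because its level was low in Gata2+/f, so its difference between the groups is given as a description with no test. The other 7 were picked as relatives or partners of Plcg1.

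Poly-A RNA was sequenced from marrow of leukaemic C57BL/6 mice at end point, sorted for c-kit after thawing. The 3 Gata2+/f libraries (replicates 7, 9 and 11) carried 1 Gata2 allele that the labels write as f, and the 3 Gata2+/+ libraries (replicates 3, 5 and 6) carried none. Both groups carried the Cbfb-MYH11 knockin, a model of the CBFB-MYH11 fusion found in acute myeloid leukaemia. The labels give neither the age nor the sex of the animals. They also do not say what the f allele changes and in which cells, nor whether each library came from a separate animal. By the expression of sex-linked genes, Gata2+/f replicates 7 and 9 read as male and 11 as female. Gata2+/+ replicate 3 read as male, and 5 and 6 as female. The comparison sets the 2 Gata2 genotypes against each other.

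Phospholipase C gamma is recruited to activated receptors, among them Kit and the IgE receptor of mast cells, and cleaves a membrane lipid into inositol trisphosphate and diacylglycerol. Inositol trisphosphate releases stored calcium, while diacylglycerol recruits protein kinase C and the RasGRP proteins, which load Ras with GTP. Plcg1 is expressed in most tissues, whereas Plcg2 is best known from B cells, mast cells, platelets and other myeloid cells. Of the kinases, Prkca and Prkcb encode conventional isoforms that need both calcium and diacylglycerol, and Prkcd and Prkcq encode isoforms (delta and theta) that need diacylglycerol but not calcium.

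Library totals ran from 53789568 to 67854631 expected counts (reads per gene as estimated by RSEM), so 3 counts correspond to 0.0424 to 0.0600 CPM (counts scaled to library size with TMM factors). Gata2 itself had 498, 273 and 264 CPM in Gata2+/f against 886, 887 and 737 CPM in Gata2+/+. Kit, the receptor used for the sort, was present in every library, at 193, 175 and 328 CPM in Gata2+/f against 826, 1222 and 1466 CPM in Gata2+/+. Several marker lists of cell types differed between the groups, but not all. The 12 mast cell and basophil markers, Gata2 and Kit among them, summed to 1328 to 4140 CPM in Gata2+/f, the highest in replicate 11. In Gata2+/+ they summed to 10966 to 13079 CPM. Of the 11 tested, 10 had log2 fold changes under 0. The 2 best known from basophils did not follow the sum. Prss34 was higher in Gata2+/f without overlap, at means of 3.55 against 0.481 CPM, and Mcpt8 overlapped, at 18.1 against 33.8 CPM. The 12 neutrophil markers summed to 4093 to 8234 CPM in Gata2+/f and 160 to 468 CPM in Gata2+/+. The 12 monocyte and macrophage markers summed to 1068 to 2524 CPM in Gata2+/f and 327 to 1019 CPM in Gata2+/+. The erythroid sums overlapped, at 2356 to 2979 CPM in Gata2+/f and 2841 to 3332 CPM in Gata2+/+. The part of these lists in the results that follow was not tested, and in sorted bulk RNA fewer cells of a type and less RNA per cell cannot be told apart. With edgeR's quasi-likelihood test and adjustment over all genes, 0 genes passed an adjusted p under 0.05; 3486 (22.6%) had an unadjusted p under 0.05, DESeq2 called 1829 (11.9%), limma voom called 8 higher and 1 lower, and the newer form of edgeR's test called 13 higher and 19 lower.

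**Figure D1:**
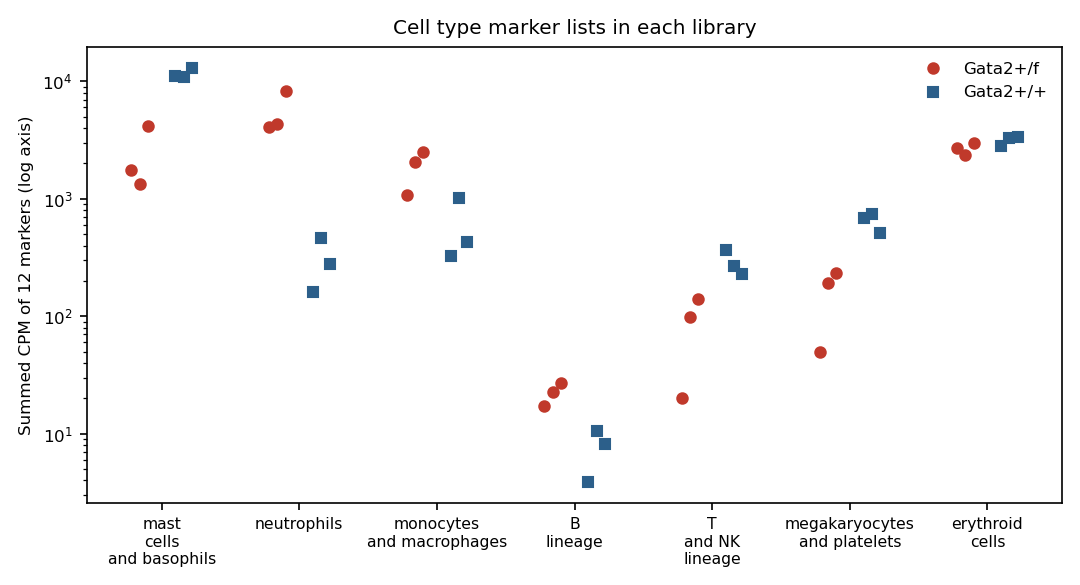
Summed CPM (log axis) of the 12 genes in each of 7 cell type marker lists, 1 point per library, with Gata2+/f as circles and Gata2+/+ as squares. The mast cell and basophil sums lie at 1328 to 4140 CPM in Gata2+/f and 10966 to 13079 CPM in Gata2+/+, and the neutrophil sums at 4093 to 8234 CPM in Gata2+/f and 160 to 468 CPM in Gata2+/+.

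Plcg1 was several-fold lower in the Gata2+/f leukaemias. It had 17.5, 31.7 and 38.2 CPM in Gata2+/f replicates 7, 9 and 11, against 151, 155 and 153 CPM in Gata2+/+ replicates 3, 5 and 6. The Gata2+/+ libraries were almost level with each other, all Gata2+/f libraries lay far under them, and replicate 7 was the lowest. The means were 29.1 ± 10.6 CPM in Gata2+/f and 153 ± 2.02 CPM in Gata2+/+ (mean ± SD, n = 3 here and throughout), a log2 fold change of −2.40, which puts Gata2+/f at 19.0% of Gata2+/+. With each library left out in turn the log2 fold change lay between −2.60 and −2.09. The counts behind these values were 1235, 1899 and 2554 in Gata2+/f and 7574, 9130 and 9815 in Gata2+/+. In GRCm38 the gene occupies chromosome 2, bases 160731300 to 160775760, forward strand. Zhx3 on the opposite strand, a zinc finger and homeobox gene, shares 379 bases of exon with it, and the strand setting of the counting is not given in the sources used here. Zhx3 itself had 1355, 291 and 808 counts in Gata2+/f and 921, 946 and 1079 in Gata2+/+.

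Plcg2, the other gamma isoform, did not follow Plcg1. It had 52.7, 103 and 116 CPM in Gata2+/f against 59.3, 80.8 and 37.2 CPM in Gata2+/+, so the groups overlapped: Gata2+/f replicates 9 and 11 were the highest of the 6 libraries, while replicate 7 lay among the Gata2+/+ values. Its log2 fold change came to 0.62 (SE 0.38, 95% interval −0.28 to 1.51; edgeR adjusted p = 0.363). Its gene lies on chromosome 8 (117498291 to 117635142, forward strand), whose 509 well-expressed genes had a median log2 deviation of 0.42 in Gata2+/f replicate 7, against −0.18 to 0.12 in the other 5 libraries.

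Within the gamma pair the predominant transcript therefore differed between the groups. Per kilobase of annotated exon, which allows levels of different genes to be compared, Plcg1 had 2.22, 4.04 and 4.86 CPM per kb in Gata2+/f against 19.3, 19.8 and 19.5 CPM per kb in Gata2+/+. Plcg2 had 12.3, 24.1 and 26.9 CPM per kb in Gata2+/f against 13.8, 18.8 and 8.67 CPM per kb in Gata2+/+. The ratio of Plcg2 to Plcg1 per kb was 5.51, 5.96 and 5.54 in Gata2+/f, against 0.716, 0.950 and 0.446 in Gata2+/+. Plcg2 thus made up 84.6% to 85.6% of the pair in Gata2+/f and 30.8% to 48.7% in Gata2+/+. This ratio was close to constant over the 3 Gata2+/f libraries although the summed level of the pair was not, at 14.5, 28.1 and 31.8 CPM per kb in Gata2+/f against 33.1, 38.6 and 28.1 CPM per kb in Gata2+/+. Because Plcg1 was picked on this contrast, no test was made of the ratio. Its size depends on the length used. The exon union of Plcg1 is 7857 bases and its longest transcript 5107 bases, while Plcg2 has 4298 bases by both. With the longest transcript each ratio and the share of Plcg2 would be lower. By mean level per length Plcg2 still ranked over Plcg1 in Gata2+/f and under it in Gata2+/+.

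**Figure D2:**
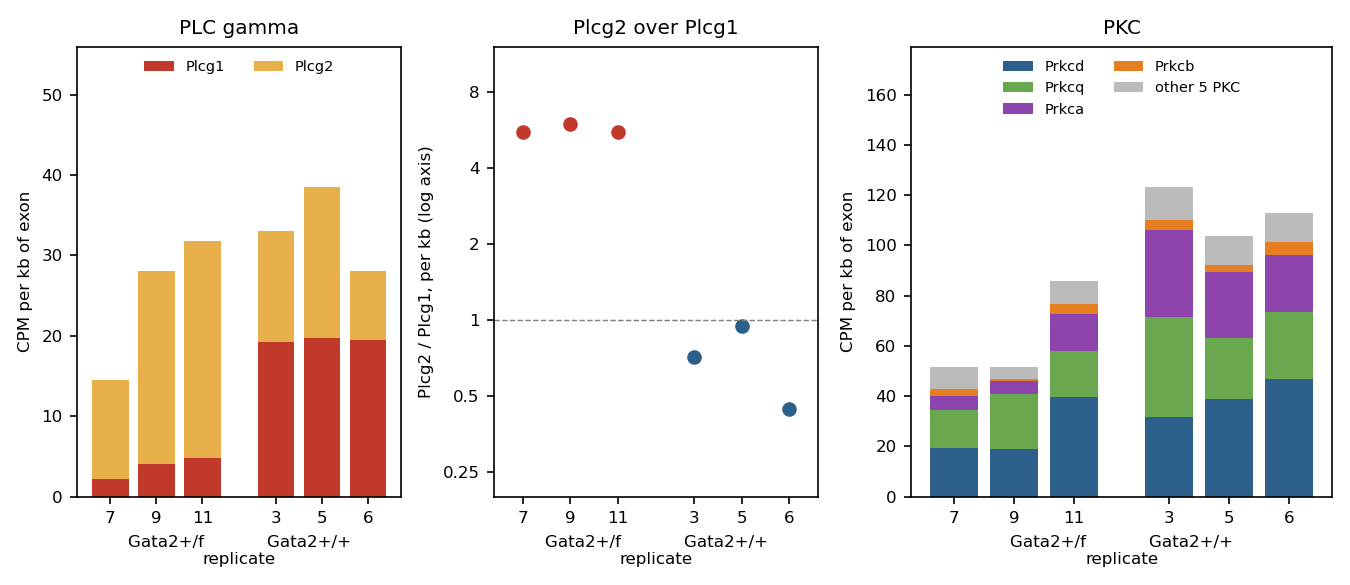
Left, level of Plcg1 and Plcg2 stacked per library, in CPM per kb of exon; middle, the ratio of Plcg2 to Plcg1 per kb (log axis, dashed line at 1); right, levels of the PKC genes stacked per library, with the 5 PKC genes outside the 8 members in grey. The ratio is 5.51 to 5.96 in the Gata2+/f libraries and 0.446 to 0.950 in the Gata2+/+ libraries, and the PKC stacks reach 51.5 to 86.0 CPM per kb in Gata2+/f and 104 to 123 CPM per kb in Gata2+/+.

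Promoter windows are shown for 4 members, Plcg1 and Prkca with the largest negative log2 fold changes and Plcg2 and Rasgrp1 with the largest positive ones, since the mice differ in a GATA factor. Each runs from 250 bases before to 50 bases after a RefSeq transcript start (GRCm38.p6), written 5′ to 3′ on the strand of the gene. Capitals mark matches on either strand to any of the GATA hexamers, which are AGATAA, then TGATAA, then AGATAG and lastly TGATAG.
Plcg1 (chr2:160731060-160731359, + strand): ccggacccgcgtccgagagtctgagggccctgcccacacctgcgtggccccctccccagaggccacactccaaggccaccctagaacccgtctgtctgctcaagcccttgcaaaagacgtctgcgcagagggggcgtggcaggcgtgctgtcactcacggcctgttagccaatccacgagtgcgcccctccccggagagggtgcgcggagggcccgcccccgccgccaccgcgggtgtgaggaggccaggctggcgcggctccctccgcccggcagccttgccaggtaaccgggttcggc
Prkca (chr11:108343839-108344138, − strand): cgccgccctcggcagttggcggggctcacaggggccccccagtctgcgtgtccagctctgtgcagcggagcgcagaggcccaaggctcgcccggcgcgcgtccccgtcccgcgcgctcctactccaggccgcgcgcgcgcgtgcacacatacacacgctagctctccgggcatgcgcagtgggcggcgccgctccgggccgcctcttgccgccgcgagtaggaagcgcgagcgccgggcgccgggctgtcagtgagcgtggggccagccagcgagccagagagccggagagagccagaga
Plcg2 (chr8:117498025-117498324, + strand): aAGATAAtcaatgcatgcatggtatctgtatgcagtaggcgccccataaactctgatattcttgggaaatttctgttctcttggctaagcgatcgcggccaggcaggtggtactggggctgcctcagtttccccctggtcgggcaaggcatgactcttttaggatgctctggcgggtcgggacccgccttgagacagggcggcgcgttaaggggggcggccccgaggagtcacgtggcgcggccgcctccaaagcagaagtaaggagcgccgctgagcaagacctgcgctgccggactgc
Rasgrp1 (chr2:117342828-117343127, − strand): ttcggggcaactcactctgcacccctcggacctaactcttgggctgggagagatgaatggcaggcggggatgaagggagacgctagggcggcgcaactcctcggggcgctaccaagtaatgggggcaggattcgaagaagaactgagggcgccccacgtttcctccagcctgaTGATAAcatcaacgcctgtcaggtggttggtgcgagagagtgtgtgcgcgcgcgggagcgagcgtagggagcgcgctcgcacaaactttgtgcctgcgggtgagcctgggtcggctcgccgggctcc
The Plcg1 and Prkca windows hold 0 GATA hexamers. The Plcg2 window holds 1, which starts at its base 2, and the Rasgrp1 window holds 1, which starts at base 174. Of all 32851 promoter windows in the RefSeq table, 29.8% hold at least 1. RefSeq windows were matched for 7 of the 8 members, and the Prkcq, Prkcb and Prkcd windows hold 0 GATA hexamers. The RUNX hexamers TGTGGT and TGCGGT are the type of site bound by RUNX proteins, the partners of Cbfb. They were matched in the Prkcb window alone among those of the 7 members, with 2 matches. Of all windows, 22.4% hold at least 1. A match is a match of letters, not a measured binding site.

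Prkca, which encodes protein kinase C alpha, was the other member with a wide gap between the groups. It had 50.2, 47.1 and 131 CPM in Gata2+/f against 314, 238 and 204 CPM in Gata2+/+. All 3 Gata2+/f libraries lay under the Gata2+/+ ones, with replicate 11 nearest to them. The fit gave a log2 fold change of −1.73 (SE 0.44, 95% interval −2.74 to −0.71), which puts Gata2+/f at 30.2% of Gata2+/+. By edgeR the difference missed the threshold (adjusted p = 0.111), and by DESeq2 it passed (adjusted p = 0.0125 at a log2 fold change of −1.70). Without Gata2+/f replicate 11 it also passed in edgeR's test, with a log2 fold change of −2.33 and adjusted p = 0.0437; over the alternatives its adjusted p ran from 0.0125 to 0.314. Replicate 11 also had the highest sum in Gata2+/f of the mast cell and basophil markers (1766, 1328 and 4140 CPM in replicates 7, 9 and 11) and of the neutrophil markers (4093, 4345 and 8234 CPM), lists that differed between the groups in opposite directions. Prkca lies on the reverse strand of chromosome 11 (107933387 to 108343928).

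Prkcq, which encodes protein kinase C theta, an isoform best known from T cells and platelets, also separated the groups, with a smaller difference. It had 108, 154 and 129 CPM in Gata2+/f against 282, 172 and 189 CPM in Gata2+/+, and the distance between Gata2+/f replicate 9 and Gata2+/+ replicate 5 was narrow. Here the log2 fold change amounted to −0.72 (SE 0.27, 95% interval −1.34 to −0.10; edgeR adjusted p = 0.183, DESeq2 adjusted p = 0.132, and 0.132 to 0.495 over the alternatives). Prkcq lies on chromosome 2 (11172108 to 11301222, forward strand). T cell transcripts were close to absent at these levels of Prkcq: Cd3e, a chain of the T cell receptor complex, had 1, 1 and 10 counts in Gata2+/f and 0, 0 and 4 counts in Gata2+/+, and Cd3d, another chain, stayed at or under 0.374 CPM in every library. The 12 T and NK markers summed to 20.0 to 140 CPM in Gata2+/f and 228 to 367 CPM in Gata2+/+, most of which was Lat, an adaptor that mast cells and platelets use as well. The megakaryocyte and platelet markers summed to 49.8 to 231 CPM in Gata2+/f and 515 to 744 CPM in Gata2+/+, with Gp6 at 0 counts in every library, and their part in the Prkcq difference was not tested.

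The remaining kinase members overlapped between the groups. Prkcd, which encodes protein kinase C delta, had 107, 105 and 221 CPM in Gata2+/f against 175, 215 and 261 CPM in Gata2+/+, with Gata2+/f replicate 11 inside the Gata2+/+ range and the other two under it (log2 fold change −0.59, SE 0.34, 95% interval −1.39 to 0.21; edgeR adjusted p = 0.338). Prkcb, which encodes protein kinase C beta, had 20.8, 6.75 and 30.0 CPM in Gata2+/f against 29.3, 19.5 and 36.9 CPM in Gata2+/+, and the 1 library outside the Gata2+/+ range was Gata2+/f replicate 9 (log2 fold change −0.57, SE 0.52, 95% interval −1.80 to 0.65; edgeR adjusted p = 0.535). Prkcd lies on chromosome 14 (30595354 to 30626210, reverse strand) and Prkcb on chromosome 7 (122288751 to 122634402, forward strand).

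Summed over the 9 protein kinase C genes, the level per kb was 51.6, 51.5 and 86.0 CPM per kb in Gata2+/f against 123, 104 and 113 CPM per kb in Gata2+/+. Prkcd held 36.9% to 46.3% of that sum in Gata2+/f and 25.6% to 41.6% in Gata2+/+, and Prkcq held 21.2% to 42.2% in Gata2+/f and 23.5% to 32.2% in Gata2+/+. The share of Prkca was 10.8%, 10.2% and 16.9% in Gata2+/f, against 28.3%, 25.6% and 20.1% in Gata2+/+, so its shares did not overlap. Prkcb held 1.71% to 5.27% in Gata2+/f and 2.46% to 4.28% in Gata2+/+. The 3 most abundant isoforms, Prkcd, Prkcq and Prkca, were the same in both groups, and the ranges of Prkcq and Prkca were apart in Gata2+/f and overlapped in Gata2+/+.

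Both RasGRP members had overlapping groups. Rasgrp4, which encodes an exchange factor known mainly from mast cells and other myeloid cells, had 12.4, 28.1 and 54.1 CPM in Gata2+/f against 30.2, 41.9 and 14.98 CPM in Gata2+/+. The Gata2+/f libraries held both the lowest and the highest value, and the log2 fold change of 0.12 (SE 0.57, 95% interval −1.20 to 1.44; edgeR adjusted p = 0.919) turned to −0.49 without Gata2+/f replicate 11 and to −0.16 without Gata2+/+ replicate 6. Rasgrp4 lies on chromosome 7 (29134851 to 29153961, forward strand), and Fam98c on the reverse strand shares 978 bases of exon with it. Fam98c had 1749, 4369 and 2749 counts in Gata2+/f and 3429, 4562 and 3872 in Gata2+/+, so reads of these 2 genes may have been divided by the counting.

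Rasgrp1, which encodes the exchange factor best known from T cell receptor signalling, was the scarcest member in both groups. It had 6.10, 1.52 and 6.11 CPM in Gata2+/f against 0.400, 2.33 and 1.18 CPM in Gata2+/+, from 431, 91 and 409 counts in Gata2+/f and 20, 137 and 76 in Gata2+/+. Gata2+/f replicates 7 and 11 lay over all Gata2+/+ libraries, and replicate 9 lay among them. The fitted log2 fold change stood at 1.81 (SE 0.79, 95% interval −0.024 to 3.64; edgeR adjusted p = 0.225, DESeq2 adjusted p = 0.0890, and 0.0890 to 0.449 over the alternatives), and it was 2.52 without Gata2+/+ replicate 5. Rasgrp1 lies on the reverse strand of chromosome 2 (117279993 to 117343001). Chromosome 2, which also holds Plcg1 and Prkcq, had median log2 deviations between −0.049 and 0.052 over its 750 well-expressed genes in the 6 libraries. B lineage markers summed to 17.1 to 27.2 CPM in Gata2+/f and 3.88 to 10.5 CPM in Gata2+/+. The T and NK markers, mostly Lat, went the other way, at 20.0 to 140 CPM in Gata2+/f and 228 to 367 CPM in Gata2+/+. The part of either list in the Rasgrp1 values was not tested.

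**Figure D3:**
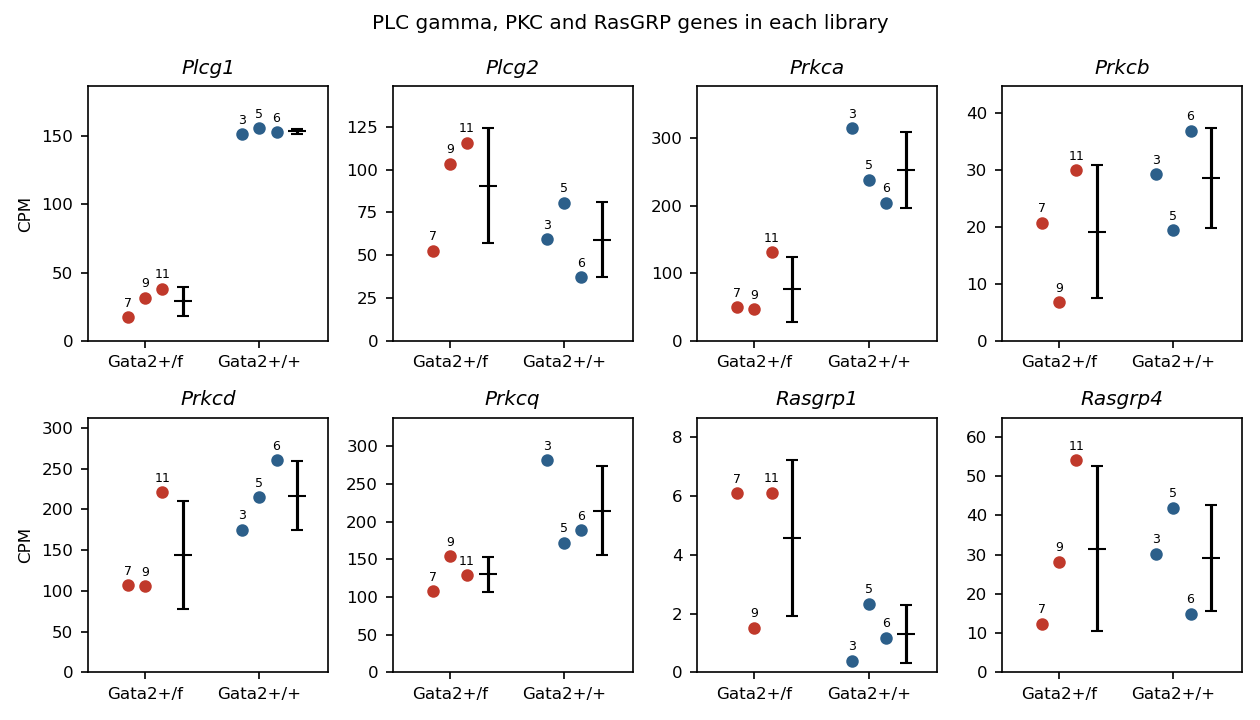
CPM of each of the 8 members in each library, 1 point per library labelled with its replicate number, Gata2+/f left of Gata2+/+; the horizontal tick and bar beside each group are the mean and SD of its 3 libraries, and each panel has its own axis from 0. Plcg1, Prkca and Prkcq have Gata2+/f libraries that all lie under the Gata2+/+ ones, and the other 5 overlap.

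The members did not move as a block. Of the 8, 5 had negative and 3 positive log2 fold changes, and the groups did not overlap for 3, each lower in Gata2+/f (16.6% of all tested genes were lower without overlap), of which Plcg1 was picked for that. Of the 7 members other than Plcg1, edgeR called 0, 2 had an unadjusted p under 0.05 (background 22.6%), DESeq2 called 1 (background 11.9%), and limma voom and the newer form of edgeR's test called 0. In order of level per kb, Prkcd was first in both groups, at 26.0 ± 11.96 CPM per kb in Gata2+/f and 39.1 ± 7.71 CPM per kb in Gata2+/+, and Rasgrp1 was last, at 0.817 ± 0.473 CPM per kb in Gata2+/f and 0.233 ± 0.174 CPM per kb in Gata2+/+. In Gata2+/f the order between them was Plcg2, Prkcq, Prkca, Rasgrp4, Plcg1 and Prkcb, and the only neighbours whose ranges did not overlap were Prkcq and Prkca. In Gata2+/+ it was Prkcq, Prkca, Plcg1, Plcg2, Rasgrp4 and Prkcb. There the ranges of Prkca, Plcg1 and Plcg2 were each clear of that of the next gene, and Prkcb was clear of Rasgrp1. The other neighbours, Rasgrp4 and Prkcb among them, overlapped.

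**Figure D4:**
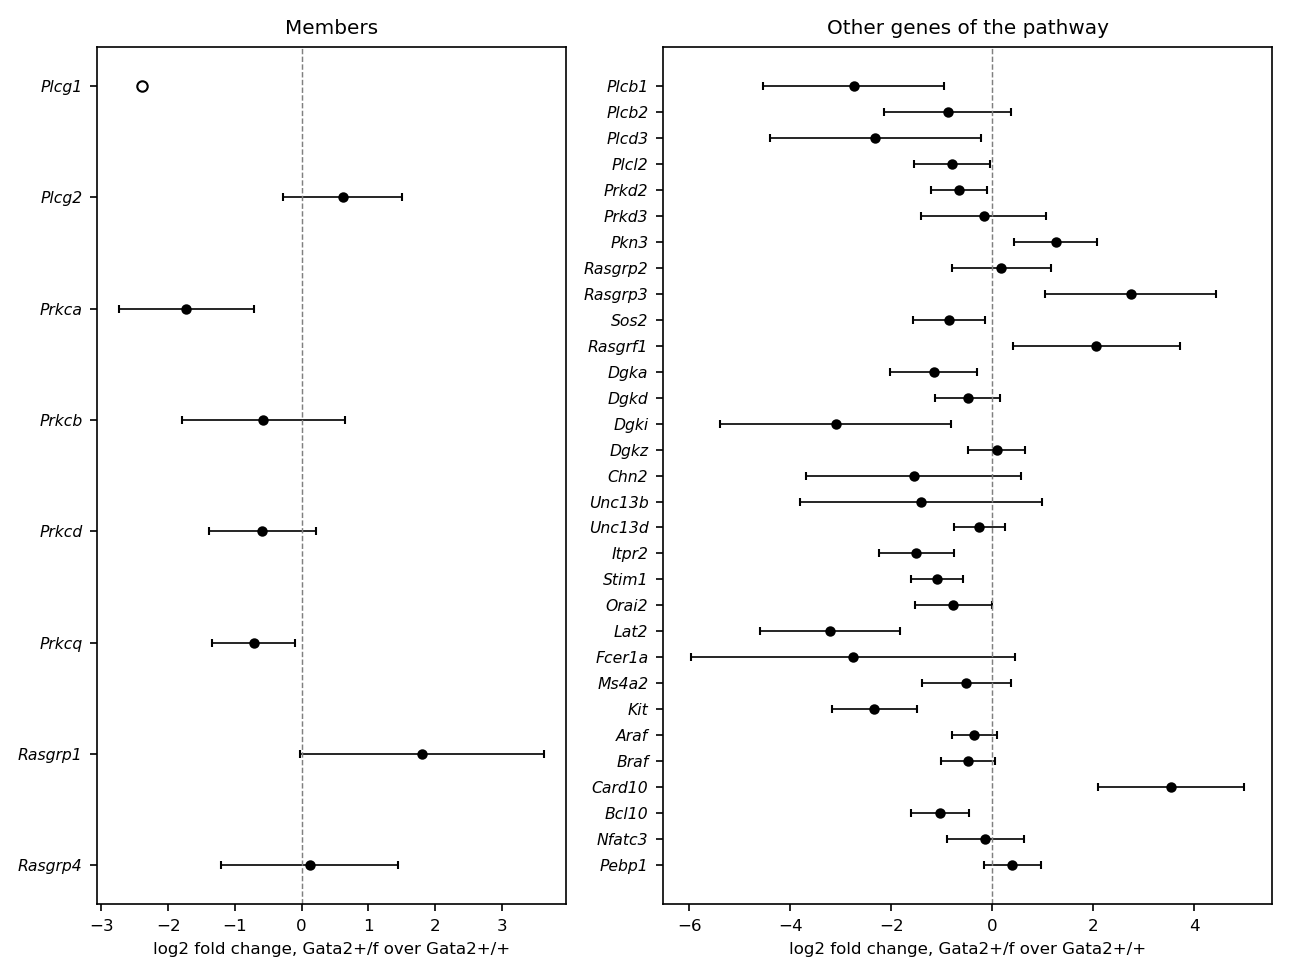
Log2 fold change of Gata2+/f over Gata2+/+ from edgeR's model, with 95% intervals, for the 8 members (left) and for other genes of the pathway (right); the dashed line marks 0. Plcg1, an open circle without interval, was picked for its low level in Gata2+/f; no gene shown passed an adjusted p under 0.05 in edgeR's test.

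The genes whose pattern over the 6 libraries was most like that of Plcg1 were Wnt11, Pcnx4, Npl, Cpb1 and Adora2a, by the root mean square difference of log2(CPM + 0.5) after centring each gene on its mean (0.207, 0.212, 0.240, 0.271 and 0.289). Npl, which encodes a lyase of sialic acid, had 61.2, 128 and 184 CPM in Gata2+/f against 582, 487 and 442 CPM in Gata2+/+. Adora2a, which encodes an adenosine receptor, had 1.47, 4.46 and 7.70 CPM in Gata2+/f against 22.0, 27.5 and 23.4 CPM in Gata2+/+, and Pcnx4 had 5.56, 8.32 and 14.6 CPM in Gata2+/f against 51.2, 38.8 and 51.2 CPM in Gata2+/+. In each of these 3, as in Plcg1, Gata2+/f replicate 7 was lowest and replicate 11 highest within Gata2+/f. This likeness is to the values that Plcg1 was picked on and is a description. Wnt11 and Cpb1 were scarce and reached the 1 CPM minimum through Gata2+/+; both had 0 counts in Gata2+/f replicate 7, where the added 0.5 sets their value. They had means of 0.636 ± 0.571 and 0.252 ± 0.219 CPM in Gata2+/f against 4.60 ± 0.378 and 2.93 ± 0.882 CPM in Gata2+/+. Among the members the nearest to Plcg1 was Prkca, with a difference of 0.502, and the farthest was Rasgrp1, with 2.14.

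The rest of the pathway was followed in 9 lists of 111 genes, of which 103 were tested. EdgeR's test called 0 of the 103, 40 had an unadjusted p under 0.05 (14 higher and 26 lower in Gata2+/f, against a background of 11.1% higher and 11.5% lower), and DESeq2 called 10 higher (background 6.16%) and 10 lower (background 5.7%). Without Gata2+/f replicate 11, edgeR called 2 of these genes lower and 0 higher. Over all 15782 genes tested in that fit it called 56 lower and 10 higher. Without overlap between the groups were 40 of the 103, 9 higher and 31 lower in Gata2+/f, against a background of 13.1% higher and 16.6% lower among all tested genes.

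Upstream of the phospholipases act receptor-proximal kinases and adaptors. Of 27 tested, edgeR called 0 and DESeq2 called 3 higher and 3 lower (background 6.16% higher and 5.7% lower). In this list 9 had log2 fold changes over 0 and 18 under 0, with a median of −0.51 (0.019 over all genes). Without overlap, 11 were lower and 3 higher (background 16.6% lower and 13.1% higher). Lat2, an adaptor that couples the IgE receptor and Kit to phospholipase C gamma, had a mean of 43.9 ± 30.4 CPM in Gata2+/f and 408 ± 150 CPM in Gata2+/+ (log2 fold change −3.22, SE 0.59; edgeR adjusted p = 0.0955, DESeq2 adjusted p = 1.51e-05). Its relative Lat, named here after its values were seen, had 12.96, 77.6 and 129 CPM in Gata2+/f against 338, 253 and 207 CPM in Gata2+/+ (edgeR adjusted p = 0.186). Of the IgE receptor, the alpha chain gene Fcer1a had 292 ± 418 CPM in Gata2+/f and 1980 ± 346 CPM in Gata2+/+, and the beta chain gene Ms4a2 had 660 ± 306 CPM in Gata2+/f and 942 ± 115 CPM in Gata2+/+ with overlapping groups (edgeR adjusted p = 0.272 and 0.438). Fcer1a, Ms4a2 and Kit also stand in the mast cell and basophil list, of whose 11 tested genes 10 had log2 fold changes under 0.

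Calcium release and entry genes, which act downstream of inositol trisphosphate, had a median log2 fold change of −0.52 over 12 tested genes, 5 of them lower without overlap and 0 higher (background 16.6% lower and 13.1% higher). Itpr2, a receptor for inositol trisphosphate, had a mean of 107 ± 41.9 CPM in Gata2+/f and 304 ± 58.9 CPM in Gata2+/+ (log2 fold change −1.50, SE 0.32), and the store calcium sensor gene Stim1 had 76.5 ± 14.0 CPM in Gata2+/f and 164 ± 20.1 CPM in Gata2+/+ (−1.10, SE 0.22). Neither passed in edgeR's test (adjusted p = 0.0966 for both), and both passed in DESeq2's (adjusted p = 0.00429 and 0.00455). Orai2, a channel gene of store-operated entry, had 123 ± 47.7 CPM in Gata2+/f and 209 ± 18.4 CPM in Gata2+/+ (edgeR adjusted p = 0.217).

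Among other phospholipase C genes, 8 of 10 tested had log2 fold changes under 0, with a median of −0.84 (0.019 over all genes). EdgeR called 0 of them and DESeq2 called 1 lower (background 5.7%). Plcb1, a G protein-activated phospholipase gene, had 3.31 ± 2.73 CPM in Gata2+/f and 22.2 ± 14.2 CPM in Gata2+/+ without overlap (log2 fold change −2.74, SE 0.77; edgeR adjusted p = 0.129, DESeq2 adjusted p = 0.0054). Plcb2, the most abundant of them in CPM, had 147 ± 95.9 CPM in Gata2+/f and 270 ± 78.6 CPM in Gata2+/+ with overlap. Plcl2, a relative without catalytic activity, had 67.0 ± 26.9 CPM in Gata2+/f and 116 ± 7.92 CPM in Gata2+/+, and Plcd3 had 1.37 ± 0.870 CPM in Gata2+/f and 6.81 ± 6.40 CPM in Gata2+/+ (edgeR adjusted p = 0.206 and 0.195). Plcz1, the sperm isoform gene, had 0 counts in every library.

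Of 11 other kinases related to protein kinase C, 3 had log2 fold changes over 0 and 8 under 0, with a median of −0.17. Pkn3, a kinase gene, was higher without overlap, at 10.05 ± 0.458 CPM in Gata2+/f and 4.22 ± 1.003 CPM in Gata2+/+ (log2 fold change 1.25, SE 0.35; edgeR adjusted p = 0.131, DESeq2 adjusted p = 0.00112). Prkd2, a protein kinase D gene, was at 32.99 ± 5.94 CPM in Gata2+/f and 52.0 ± 5.84 CPM in Gata2+/+, lower without overlap (edgeR adjusted p = 0.173). Prkd3 was nearly level, at 57.1 ± 31.7 CPM in Gata2+/f and 64.3 ± 32.0 CPM in Gata2+/+.

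Diacylglycerol kinases, which remove the lipid that recruits protein kinase C and RasGRP, had a median of −0.25 over 8 tested genes. Dgkz, the most abundant of them in CPM, had 305 ± 41.7 CPM in Gata2+/f and 288 ± 54.7 CPM in Gata2+/+, and Dgkd had 117 ± 37.2 CPM in Gata2+/f and 163 ± 26.4 CPM in Gata2+/+, both with overlap. Dgka had 29.7 ± 13.2 CPM in Gata2+/f and 66.4 ± 6.08 CPM in Gata2+/+ without overlap (log2 fold change −1.16, SE 0.37; edgeR adjusted p = 0.151), and Dgki had 0.133 ± 0.103 CPM in Gata2+/f and 1.16 ± 0.834 CPM in Gata2+/+ (edgeR adjusted p = 0.149, DESeq2 adjusted p = 0.0251). Dgkb and Dgkk had 0 counts in every library. A further list held chimaerin (Chn) and Unc13 genes, drawn up for a diacylglycerol-binding C1 domain that Unc13d does not encode. Of these genes 5 were tested and all 5 had log2 fold changes under 0, with a median of −0.54 (0.019 over all genes). In that list Chn2 had 21.2 ± 27.7 CPM in Gata2+/f and 62.3 ± 7.74 CPM in Gata2+/+, Unc13b had 15.6 ± 19.2 CPM in Gata2+/f and 41.6 ± 23.0 CPM in Gata2+/+, and Unc13d, a gene of granule release, had 247 ± 12.6 CPM in Gata2+/f and 295 ± 49.3 CPM in Gata2+/+ (edgeR adjusted p = 0.339, 0.430 and 0.507).

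Other Ras exchange factors had a median log2 fold change of 1.12 over 6 tested genes, which became −0.40 when only genes with 1 CPM in 3 libraries were kept, which drops the scarce ones. Rasgrp3, a relative of the RasGRP members best known from B cells, had 1.15, 0.719 and 3.47 CPM in Gata2+/f against 0.320, 0.289 and 0.187 CPM in Gata2+/+ without overlap (log2 fold change 2.74, SE 0.72; edgeR adjusted p = 0.121, DESeq2 adjusted p = 0.00522). Rasgrp2, best known from platelets, had 70.5 ± 37.3 CPM in Gata2+/f and 62.2 ± 10.6 CPM in Gata2+/+, and Sos2 had 49.6 ± 16.2 CPM in Gata2+/f and 89.8 ± 16.9 CPM in Gata2+/+ without overlap (edgeR adjusted p = 0.824 and 0.173). Rasgrf1 stayed under 1 CPM in every library, at 0.344 ± 0.240 CPM in Gata2+/f and 0.0815 ± 0.0200 CPM in Gata2+/+. Within the RasGRP family, Rasgrp2 and Rasgrp4 together held most of the summed level per kb: Rasgrp2 had 42.9% to 56.6% in Gata2+/f and 45.2% to 61.3% in Gata2+/+, and Rasgrp4 had 34.4% to 45.8% in Gata2+/f and 35.0% to 51.1% in Gata2+/+. The share of Rasgrp1 was 19.3%, 2.45% and 5.89% in Gata2+/f against 0.715%, 3.23% and 3.14% in Gata2+/+.

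Downstream, the Ras to ERK genes were close to the median of all genes, at 0.065 over 10 tested, 6 over 0 and 4 under. Araf and Braf, which encode kinases of that cascade, were lower without overlap, at 76.6 ± 7.65 and 38.0 ± 7.58 CPM in Gata2+/f against 98.3 ± 6.49 and 53.1 ± 4.50 CPM in Gata2+/+ (edgeR adjusted p = 0.297 and 0.261). Genes that act after protein kinase C and calcium had a median of −0.30 over 14 tested. Bcl10, which joins CARD proteins to the protease Malt1, had 38.7 ± 6.19 CPM in Gata2+/f and 79.4 ± 17.1 CPM in Gata2+/+ (log2 fold change −1.04, SE 0.24; edgeR adjusted p = 0.101, DESeq2 adjusted p = 0.0148). Card10, a CARD scaffold gene, had 2.84, 1.96 and 4.44 CPM in Gata2+/f against 0.160, 0.426 and 0.202 CPM in Gata2+/+ (log2 fold change 3.54, SE 0.62; edgeR adjusted p = 0.0955, DESeq2 adjusted p = 5.52e-07). Nfatc3 and Pebp1, the most abundant in CPM, had 135 ± 62.4 and 208 ± 45.2 CPM in Gata2+/f against 149 ± 9.99 and 158 ± 19.8 CPM in Gata2+/+, with overlap in both.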

How the data were processed

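The authors deposited 1 table of RSEM expected counts, that is, estimated counts per Ensembl gene without normalization, with 1 column for each of 6 libraries. Build GRCm38 and the tools RSEM 1.3.0, STAR 2.5.4a and CASAVA 1.8.2 are listed in the submitters' processing notes. Libraries were poly-A selected and stranded, per the labels' protocols; the annotation and strand setting of the counting are not given in the sources used here. Symbols, positions and exon lengths came from GENCODE M21 (97.3% of IDs matched).

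In R 4.3.3, counts were rounded, kept by edgeR's filterByExpr at a minimum count of 10, scaled by TMM and put through the quasi-likelihood test of edgeR 4.0.16 (prior degrees of freedom 3.57, Benjamini-Hochberg over all 15432 genes, threshold 0.05), with no covariate. Fold changes are Gata2+/f over Gata2+/+. CPM use the TMM factors; levels per kb divide CPM by the union of annotated exons. Alternatives were DESeq2 1.42.0, limma 3.58.1 voom, other scalings and filters, and leaving out each library; the newer form of edgeR's test and a covariate for sex, read from the sex-linked genes, were chosen only after seeing the data. Intervals cover the model's error. P-values set the group difference against the modelled spread between these samples, which the labels do not tie to separate animals.

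The members and lists were chosen with earlier results of these data known. Named are the members, Gata2 and Kit; from each list the 2 tested genes with the highest mean CPM and the 2 with the smallest p; the 5 genes most like Plcg1 (mean of at least 1 CPM); and list genes at 0 counts in every library. Other names are given as chosen after their values were seen or serve as markers or overlapping genes. Some genes that the rule names are not reported here.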

Additional observations from a re-analysis of the deposited data

How the results depend on the processing

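No paired analysis was possible because the groups share no replicate number. Calls over all genes in edgeR's test were 0 higher and 0 lower; they were 950 and 879 with DESeq2, 8 and 1 with limma voom, 10 and 9 with no filter beyond 1 count, 13 and 19 with the newer form of edgeR's test, 8 and 1 with sex as a covariate, and 0 to 10 and 0 to 56 with each library left out, the highest of both without Gata2+/f replicate 11. Pathway list genes called were 10 higher and 10 lower with DESeq2 and 0 to 2 lower with a library left out. Prkca passed with DESeq2 (−1.70) and, among fits without 1 library (−2.33 to −1.42), without Gata2+/f replicate 11. Gata2 (−1.27) and Kit (−2.31) passed with DESeq2. Rasgrp4 turned to −0.49 without Gata2+/f replicate 11 and −0.16 without Gata2+/+ replicate 6 (range −0.49 to 0.54). Every other member kept its direction under the 14 alternatives. With a library left out, the median of the PKC-related kinases ran from −0.47 to 0.016. That of the Ras exchange factors ran from 0.61 to 1.42 and was −0.40 with 1 CPM in 3 libraries. For diacylglycerol kinases it ran from −0.43 to −0.048 and was −0.15 with upper quartile factors. For the Chn and Unc13 genes it ran from −1.99 to −0.21 and was −1.12 with limma voom. Other medians ran from −0.67 to −0.15 (calcium), −0.61 to −0.23 (proximal kinases and adaptors) and −0.45 to 0.023 (CARD and NFAT). The Ras to ERK median ran from 0.022 to 0.15 and was 0.15 with upper quartile factors. With upper quartile factors the median of all genes shifted to 0.11. With the longest transcript as the length, ranks in Gata2+/f became 7 for Plcg1, 3 for Plcg2, 6 for Prkcb and 2 for Prkcq, and in Gata2+/+ 3 for Plcg1, 4 for Prkca, 6 for Prkcb and 7 for Rasgrp4. By the largest difference, 3 of the 5 genes most like Plcg1 were shared. The cause of these shifts was not tested. With 3 libraries a group, the differences of Plcg2, Prkcb, Prkcd, Prkcq, Rasgrp1 and Rasgrp4 passed the threshold in no fit. In edgeR's main fit the intervals of all of these but Prkcq included 0, so they could not be told from the spread between libraries. The groups of Prkcq did not overlap, and its unadjusted p in edgeR's test was 0.0287. It missed the threshold after adjustment over all genes, of which 22.6% had an unadjusted p under 0.05. The difference of Prkca passed only with DESeq2 and without Gata2+/f replicate 11.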
